A study of Mus musculus with 6 samples.

Results

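The genes described are 36 transcripts that mark T cells, natural killer (NK) cells and immune checkpoints, measured by RNA sequencing in whole mammary tumours. They were chosen by symbol, and each of the 36 matched exactly 1 of the 55487 gene rows. Roles range from the T cell receptor and its coreceptors, through kinases, costimulation, killing and NK receptors, to regulatory T cell genes and checkpoint receptors and ligands. The tumours came from MMTV-PyMT mice, in which the mouse mammary tumour virus promoter drives the polyoma middle T oncogene in mammary epithelium, so both groups carry the same transgene. The agonist group has 3 libraries, from tumours of mice that took the liver X receptor (LXR) agonist DMHCA orally in Medigel cups, started at 6 weeks of age and given continuously. The vehicle group has 3 libraries from tumours of mice under the same protocol without the agonist. The labels do not say which strain the mice were, how old they were at collection, or whether each tumour had its own mouse. Titles carry 1 code per group whereas the deposited tables carry 6 different codes, and what the codes stand for is not stated. All p-values therefore describe the spread among these libraries, part of which may be technical.

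T cells recognise peptides through the T cell receptor, which signals through the CD3 chains and the kinases LCK and ZAP-70. CD8 T cells and NK cells kill target cells with perforin and granzymes, whereas regulatory T cells, which depend on the transcription factor FOXP3, restrain other T cells. Checkpoint receptors such as PD-1, CTLA-4, LAG-3, TIM-3 and TIGIT dampen activated T cells when their ligands are engaged. LXRs are sterol-activated nuclear receptors that act in immune cells as well as in lipid metabolism.

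The libraries held 36577451 to 42595799 expected counts, that is, read counts estimated by the authors' RSEM run. The epithelial genes Epcam, at 807 to 1046 CPM (counts scaled to library size), and Krt8, at 948 to 1611 CPM, were high in every library. The LXR target genes Abca1 and Abcg1, which encode cholesterol exporters, had log2 fold changes of agonist over vehicle of 0.85 ± 0.31 and 0.86 ± 0.23 (SE; unadjusted p = 0.0288 and 0.00644, both adjusted p = 0.990 by edgeR). Ptprc, which encodes the pan-leukocyte antigen CD45, had 28.5, 29.7 and 36.3 CPM in agonist replicates 1 to 3 and 24.4, 36.3 and 11.9 CPM in vehicle replicates 1 to 3. Vehicle replicate 3 thus had the lowest Ptprc, and also the lowest sum of 7 macrophage genes, at 113 CPM against 261 to 528 CPM in the other libraries. The sum of 5 fibroblast genes was likewise lowest there, at 341 CPM against 1473 to 4531 CPM. Markers of B cells and lymph node, which a mammary fat pad can hold, were scarce. Their 12 genes summed to 3.85, 5.49 and 4.61 CPM with agonist and 3.40, 3.62 and 1.34 CPM with vehicle, groups that did not overlap. Ms4a1, which encodes the B cell antigen CD20, reached at most 3 counts in any library. The part of these other cells in the results below was not tested.

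T cell and NK cell transcripts were sparse in all 6 tumours. Expression per length was compared in TPM, which also scales for transcript length, and the median member had a mean level of 0.304 TPM against 0.873 TPM for the median of the 29166 genes with any count. Only 8 of the 36 members had a mean of at least 1 TPM, and the median member stood at the 40.7th percentile of those genes. With detection set at 3 expected counts in a library, 19 members were detected in all 6 libraries, 16 in some and 1, Pdcd1lg2, in none. After the filter on low counts 19 members remained for testing, of which 17 were detected in all libraries. The 17 not tested each averaged fewer than 10 counts per library. In whole tumours, fewer cells of a type and less RNA per cell cannot be told apart.

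**Figure D1:**
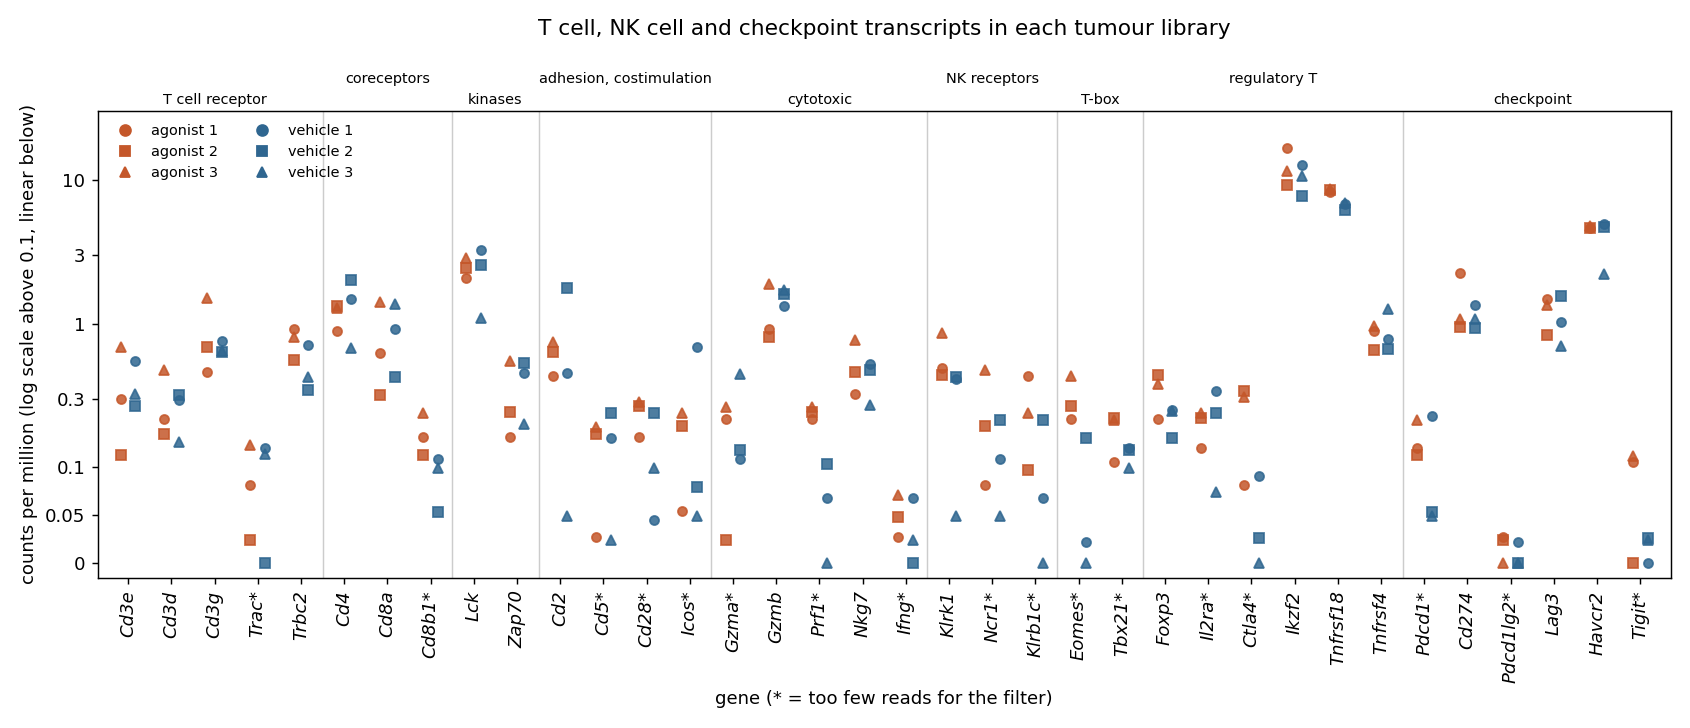
Level of each of the 36 members in each library, in CPM, on an axis that is logarithmic above 0.1 and linear below, with agonist libraries in orange and vehicle libraries in blue, marker shapes for replicates, and an asterisk on members with too few reads to test. Ikzf2 and Tnfrsf18 lie above 6 CPM in every library, while most other members lie below 1 CPM and the colours are interleaved.

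No member differed between agonist and vehicle in edgeR's quasi-likelihood test. Members with an adjusted p under 0.05 numbered 0 of 19, against a background of 0.0% of the 17396 genes tested, and their adjusted p-values were 0.990 to 0.998. At an unadjusted p under 0.05 the count was also 0, where 3.09% of all genes tested were (538 genes), and DESeq2 gave 0 of 36 at that level, where 2.66% of all genes were, so a count of 0 says little about the members. At an adjusted p under 0.05 DESeq2 called 0 members and 0.0172% of all genes (5 genes). Log2 fold changes, given throughout as agonist over vehicle, were positive for 12 and negative for 7 of the 19, with a median of 0.18 against -0.0049 over all genes tested. The median half-width of the 95% interval was 1.14 on the log2 scale. For a typical member a difference smaller than that could not be told from 0 at this depth and with this spread among 3 libraries per group. Without agonist replicate 3 the median was -0.11, with 8 positive and 11 negative.

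**Figure D2:**
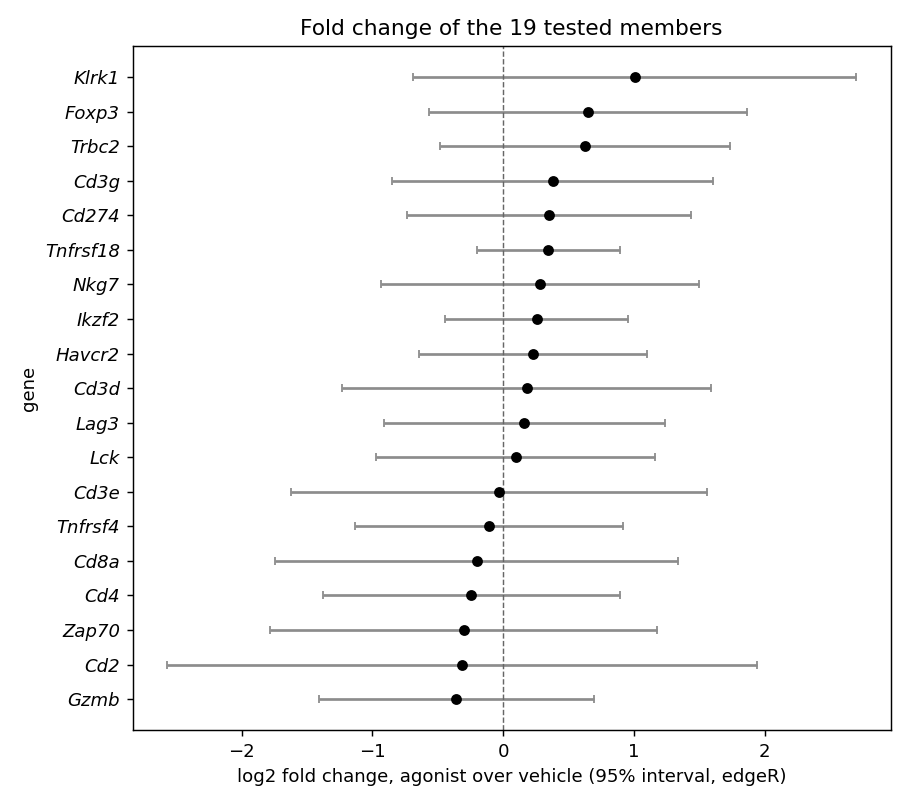
Log2 fold change of agonist over vehicle (points) with its 95% interval (bars) from edgeR for the 19 members that were tested, ordered by size. Every interval includes 0, from Gzmb at -0.36 to Klrk1 at 1.01.

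Of the 5 genes of the T cell receptor complex 4 were tested, and 0 were called. Cd3e, on chromosome 9 (44998740 to 45009627, minus strand of GRCm38), encodes the epsilon chain of CD3 and had 0.298, 0.122 and 0.692 CPM in agonist replicates 1 to 3 and 0.547, 0.266 and 0.323 CPM in the vehicle replicates. The groups overlapped fully, with the highest and the lowest value both in the agonist group (log2 fold change -0.03 ± 0.69, SE; 95% interval -1.62 to 1.56). Its neighbours Cd3d and Cd3g, also on chromosome 9, encode the delta and gamma chains. Cd3g was the more abundant, at 3.47 times the mean TPM of Cd3e and 5.20 times that of Cd3d. Cd3g had 0.461, 0.683 and 1.5 CPM with agonist and 0.752, 0.639 and 0.647 CPM with vehicle, so the agonist group held both extremes here too (0.38 ± 0.53). For Cd3d the log2 fold change was 0.18 ± 0.61.

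The constant segments of the receptor had low counts (Trac) or counts that are less certain (Trbc2). Trac, the alpha chain constant segment, had 3, 1 and 6 counts with agonist and 6, 0 and 5 with vehicle and was not tested. Trbc2, a beta chain constant segment on chromosome 6 (41546730 to 41548352, plus strand), had 0.921, 0.561 and 0.812 CPM with agonist and 0.707, 0.346 and 0.423 CPM with vehicle (0.63 ± 0.48). Vehicle replicate 1 lay above agonist replicate 2. Trbc1 is a near-identical copy of Trbc2 and reads of the pair cannot be separated with certainty. Trbc1 itself was at 0.325, 0.268 and 0.883 CPM with agonist and 0.205, 0.266 and 0.0746 CPM with vehicle (1.43 ± 0.70, unadjusted p = 0.0770 and adjusted p = 0.990 by edgeR).

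Coreceptors divide T cells into helper and cytotoxic lineages. Cd4, on chromosome 6 (124864692 to 124888221, minus strand), had 0.894, 1.32 and 1.29 CPM with agonist and 1.48, 2.0 and 0.671 CPM with vehicle (-0.24 ± 0.49). Vehicle libraries thus held both the highest and the lowest Cd4. Cd8a, on the same chromosome (71373427 to 71379173, plus strand), had 0.623, 0.317 and 1.41 CPM with agonist and 0.912, 0.426 and 1.37 CPM with vehicle (-0.20 ± 0.67). Both extremes of Cd8a again fell within the agonist group. The log2 ratio of Cd8a to Cd4 within a library ran from -2.01 to 0.13 with agonist and from -2.19 to 1.01 with vehicle, a difference in means of -0.17 (exact two-sided permutation test, p = 1.0, n = 3 per group). Cd8b1, the partner chain of CD8, had 6, 5 and 10 counts with agonist and 5, 2 and 4 with vehicle and was not tested.

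Of the signalling kinases, Lck was well above Zap70, at 6.29 times its mean TPM. Lck had 2.09, 2.44 and 2.86 CPM with agonist and 3.26, 2.56 and 1.09 CPM with vehicle (0.10 ± 0.46). Vehicle replicate 3 stood lowest and vehicle replicate 1 highest. Zap70 had 0.163, 0.244 and 0.549 CPM with agonist and 0.456, 0.532 and 0.199 CPM with vehicle (-0.30 ± 0.64).

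Among the 4 adhesion and costimulatory receptors 1 was tested, and 0 were called. Cd2, an adhesion receptor of T and NK cells, had 0.434, 0.635 and 0.740 CPM with agonist and 0.456, 1.76 and 0.0497 CPM with vehicle. The vehicle group spanned the agonist group on both sides, and the log2 fold change of -0.31 ± 0.97 was 1.22 without vehicle replicate 2. Icos, an inducible costimulator, had 30 counts in vehicle replicate 1 and 2 to 10 counts in the other libraries. Cd28, the main costimulatory receptor, had 2 to 12 counts per library, and Cd5, a receptor that dampens T cell receptor signals, had 1 to 9. None of these 3 was tested.

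Of the 5 effector genes of killing 2 were tested and 0 were called. Groups were separated with agonist higher for 1 of the 5, Prf1, as for 2.83% of all 29166 genes with a count. Gzmb, which encodes the protease granzyme B and lies on chromosome 14 (56258838 to 56262260, minus strand), had 0.921, 0.805 and 1.89 CPM with agonist and 1.32, 1.6 and 1.72 CPM with vehicle (-0.36 ± 0.45). The other agonist libraries lay below the vehicle range, but agonist replicate 3 lay above it. Prf1, on chromosome 10 (61297833 to 61304680, plus strand), encodes perforin, the pore through which granzymes enter a target cell. It had 8, 10 and 11 counts with agonist and 3, 4 and 0 with vehicle, or 0.241 ± 0.0231 against 0.0583 ± 0.0540 CPM (SD, n = 3). All agonist libraries lay above all vehicle libraries, though the counts were too low for the filter. In edgeR without the filter the log2 fold change was 2.01 with an unadjusted p of 0.0548 and an adjusted p of 0.881. Gzma (1 to 18 counts), which encodes another granzyme, Ifng (0 to 3 counts), which encodes the cytokine interferon gamma, and Nkg7 (0.28 ± 0.53), which encodes a protein of cytotoxic granules, all had overlapping groups.

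NK cell receptors were likewise near the limit of detection. Klrk1, which encodes the activating receptor NKG2D, lies on chromosome 6 (129610323 to 129623864, minus strand) and had 0.488, 0.439 and 0.859 CPM with agonist and 0.410, 0.426 and 0.0497 CPM with vehicle. The groups did not overlap, but agonist replicates 1 and 2 and vehicle replicate 1 all had 18 counts and vehicle replicate 2 had 16, so the separation was within counting error. The log2 fold change was 1.01 ± 0.73 (95% interval -0.69 to 2.7, unadjusted p = 0.207), and 0.51 without vehicle replicate 3. Ncr1, which encodes the NK receptor NKp46, had 3, 8 and 20 counts with agonist and 5, 8 and 2 with vehicle. Klrb1c, which encodes NK1.1, belongs to a family of close relatives and its counts are not all whole. It had 15.5, 4.43 and 9.61 expected counts with agonist and 3.23, 8.42 and 0 with vehicle.

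The T-box transcription factors EOMES and T-bet direct the cytotoxic programme of CD8 T and NK cells. Eomes, on chromosome 9 (118478212 to 118486132, plus strand), had 8, 11 and 18 counts with agonist and 1, 6 and 0 with vehicle, or 0.305 ± 0.111 against 0.0608 ± 0.0864 CPM (SD, n = 3). Its groups did not overlap. Without the low-count filter edgeR gave a log2 fold change of 2.32, an unadjusted p of 0.0354 and an adjusted p of 0.881, and DESeq2 gave an unadjusted p of 0.0553. Gm33460 overlaps Eomes in the annotation. The expected counts of Eomes are whole in every library, but without a stated strand setting any reads from the overlap are uncertain. Tbx21, which encodes T-bet, had 4, 9 and 9 counts with agonist and 6, 5 and 4 with vehicle, and in CPM agonist replicate 1 lay within the vehicle range.

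In all, 5 of the 36 members, Cd8b1, Prf1, Klrk1, Eomes and Tnfrsf18, had groups that did not overlap with agonist higher, and 0 had agonist lower. Over all 29166 genes with a count, 2.83% had agonist higher in this way and 3.47% had agonist lower, and over the genes tested the shares were 3.02% and 4.22%. All members were counted here, whether or not they passed the filter. Of the 5, only Klrk1 and Tnfrsf18 were among the 19 members tested, to which the shares over the genes tested apply. For Cd8b1 the separation rested on scaling alone, since agonist replicate 2 and vehicle replicate 1 both had 5 counts. The same 5 were separated after leaving out vehicle replicate 3, when 6.28% of all genes were, and Cd4 and Il2ra were then separated with agonist lower, as were 7.38% of all genes. Divided by Ptprc in the same library, a scale added after seeing the data, Prf1 and Eomes remained separated and Klrk1, Cd8b1 and Tnfrsf18 did not, with 0.658% of all genes separated upward. On that scale Prf1 had 7.60, 8.22 and 7.23 CPM per 1000 CPM of Ptprc with agonist and 2.80, 2.94 and 0 with vehicle. Eomes had 7.60, 9.04 and 11.8 with agonist and 0.934, 4.41 and 0 with vehicle. Both genes had 0 counts in vehicle replicate 3, the library with the lowest Ptprc, and division cannot raise a 0. The scale thus could not undo their separation through that library. Cd4 had 31.4, 44.4 and 35.5 against 60.7, 55.1 and 56.6, so per Ptprc the agonist libraries lay below the vehicle libraries, as did 3.58% of all genes.

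**Figure D3:**
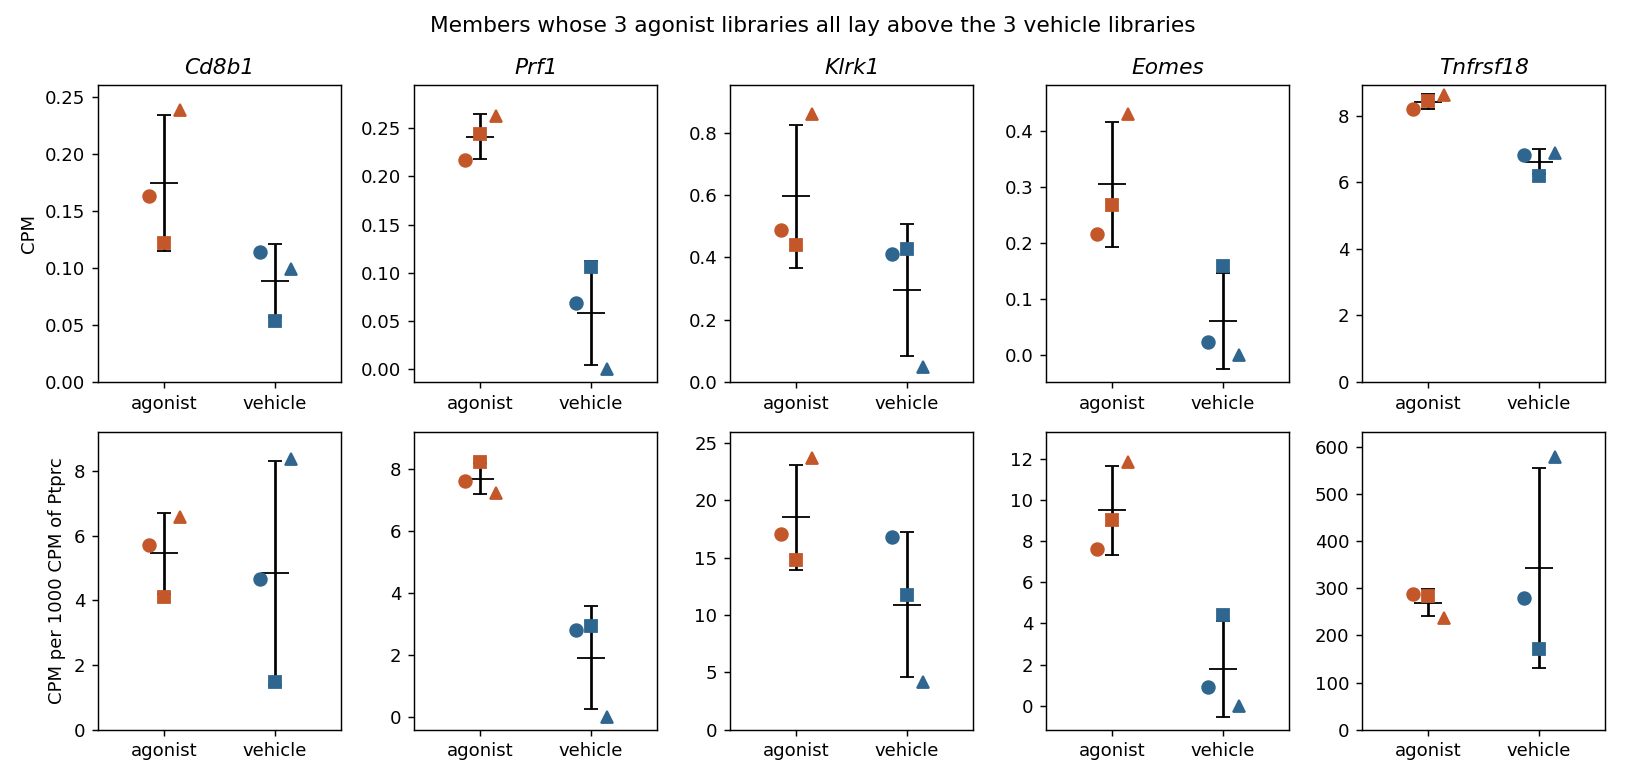
The 5 members whose agonist libraries (orange) all lay above the vehicle libraries (blue), in CPM (upper row) and in CPM per 1000 CPM of Ptprc (lower row), with marker shapes for replicates 1 (circle), 2 (square) and 3 (triangle) and black bars for the mean ± SD of 3 libraries. In the lower row only Prf1 and Eomes still have separated groups, and both have 0 counts in vehicle replicate 3, which no divisor can raise.

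The promoters of Prf1, Klrk1 and Eomes, picked after their values were seen, are shown because their groups were separated. Gzmb, Gzma, Ifng, Nkg7 and Tbx21, also genes of killing or its control, had overlapping groups. Tnfrsf18, which was separated too, is not shown. RefSeq windows on GRCm38.p6, from 250 bases before to 50 bases after a gene's start, were found for 27 of the 36 members (32 windows). Capitals mark the ETS core AGGAAGT and the RUNX core TGTGGT on either strand. ETS and RUNX factors act widely in lymphocyte gene expression. The Prf1 window is chr10:61297586-61297885 (plus strand), the Klrk1 window chr6:129623815-129624114 (minus strand) and the Eomes window chr9:118477939-118478238 (plus strand).
Prf1: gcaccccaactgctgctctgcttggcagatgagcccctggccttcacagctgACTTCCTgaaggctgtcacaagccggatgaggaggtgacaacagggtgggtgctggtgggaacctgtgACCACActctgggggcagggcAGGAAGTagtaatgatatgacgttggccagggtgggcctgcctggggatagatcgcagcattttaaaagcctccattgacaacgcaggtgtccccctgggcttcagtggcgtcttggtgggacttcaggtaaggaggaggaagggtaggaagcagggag
Klrk1: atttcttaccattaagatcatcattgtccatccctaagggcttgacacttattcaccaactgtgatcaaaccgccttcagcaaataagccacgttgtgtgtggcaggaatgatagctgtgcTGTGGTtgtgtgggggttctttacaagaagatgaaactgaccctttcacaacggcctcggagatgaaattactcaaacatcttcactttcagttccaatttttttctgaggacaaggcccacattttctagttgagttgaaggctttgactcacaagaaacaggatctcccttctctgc
Eomes: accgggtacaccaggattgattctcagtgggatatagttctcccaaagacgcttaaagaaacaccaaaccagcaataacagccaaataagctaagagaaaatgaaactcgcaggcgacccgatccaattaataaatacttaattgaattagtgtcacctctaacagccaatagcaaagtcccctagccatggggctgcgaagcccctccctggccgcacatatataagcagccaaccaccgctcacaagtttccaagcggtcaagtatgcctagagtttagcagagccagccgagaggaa
The Prf1 window holds 2 ETS cores and 1 RUNX core, the Klrk1 window 1 RUNX core, and the Eomes window neither. Over all windows of the members, 28.1% hold the ETS core and 40.6% the RUNX core, against 9.35% and 16.8% of all 32851 promoter windows. The motifs were chosen with the members' results known, and the shares are a description. The nuclear receptor half-site AGGTCA is in 25.0% of the members' windows and 16.3% of all windows, and in none of the 3 shown. Its direct repeat with 4 bases between, the arrangement that LXR with its partner RXR is known to bind, is in 0 of the 32 windows and 0.0152% of all. The T-box core GGTGTGA is in 1 of the 32 windows, that of Nkg7, and in 3.98% of all.

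Genes associated with regulatory T cells were led by members whose levels stood far from that of Foxp3. Foxp3 itself had 0.217, 0.439 and 0.382 CPM with agonist and 0.251, 0.160 and 0.249 CPM with vehicle (0.65 ± 0.52, unadjusted p = 0.253). Agonist replicate 1 lay within the vehicle range and the other agonist libraries above it. Foxp3, on chromosome X (7573644 to 7595245, plus strand), overlaps Ppp1r3f, Ccdc22 and other annotated genes, so its reads are uncertain without strand. Its log2 ratio to Cd3e was -0.44, 1.75 and -0.84 with agonist and -1.09, -0.69 and -0.36 with vehicle, which overlapped (difference 0.87, exact permutation p = 0.5, and 1.0 adjusted over 4 ratios). That difference was 0.078 without agonist replicate 2.

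Ikzf2 and Tnfrsf18 had 14.5 and 89.3 times the mean TPM of Foxp3. Ikzf2, which encodes the transcription factor Helios, had 16.6, 9.15 and 11.4 CPM with agonist and 12.7, 7.75 and 10.6 CPM with vehicle (0.26 ± 0.30), with overlapping groups. Tnfrsf18, on chromosome 4 (156026164 to 156028895, plus strand), encodes the costimulatory receptor GITR and had 8.18, 8.44 and 8.62 CPM with agonist and 6.82, 6.18 and 6.86 CPM with vehicle. All agonist libraries lay above all vehicle libraries, at 8.41 ± 0.219 against 6.62 ± 0.383 CPM (SD, n = 3). Gm16008 overlaps Tnfrsf18 in the annotation, and the expected counts of Tnfrsf18 are not whole. The assignment of its reads is therefore uncertain. The log2 fold change of 0.35 ± 0.24 (95% interval -0.20 to 0.89) had an unadjusted p of 0.181, the smallest among the tested members, and an adjusted p of 0.990 by edgeR. It ran from 0.30 to 0.37 with each library left out.

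Tnfrsf4, which encodes the costimulatory receptor OX40 and lies near Tnfrsf18, had 0.894, 0.659 and 0.955 CPM with agonist and 0.775, 0.666 and 1.27 CPM with vehicle (-0.11 ± 0.44). Il2ra, which encodes the high-affinity interleukin-2 receptor chain CD25, had 3 to 15 counts per library with overlapping groups. Ctla4, the checkpoint receptor that regulatory T cells carry constitutively, had 3, 14 and 13 counts with agonist and 4, 1 and 0 with vehicle. Agonist replicate 1 lay within the vehicle range. Rpl18-ps1 overlaps Ctla4 in the annotation. In edgeR without the filter Ctla4 had a log2 fold change of 2.52, an unadjusted p of 0.0307 and an adjusted p of 0.881. Ctla4 and Eomes were the only 2 of the 36 members under an unadjusted p of 0.05 in that fit, where 2.9% of all 29166 genes were.

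Checkpoint receptors and ligands ranged from 217 counts in a library to 0. Havcr2, which encodes TIM-3, a receptor also found on myeloid cells, was the most abundant in CPM. It had 4.58, 4.59 and 4.75 CPM with agonist and 4.95, 4.71 and 2.21 CPM with vehicle (0.23 ± 0.38). Of the 6 libraries, 5 lay within a narrow band and vehicle replicate 3, the library with the lowest Ptprc and macrophage sum, stood well below it. Without that library the log2 fold change was -0.06. Lag3, on chromosome 6 near Cd4 (124904361 to 124911705, minus strand), had 1.49, 0.830 and 1.34 CPM with agonist and 1.03, 1.54 and 0.696 CPM with vehicle (0.16 ± 0.46).

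Pdcd1, which encodes PD-1, was rare, and Havcr2 and Lag3 had 22.0 and 7.94 times its mean TPM. It had 5, 5 and 9 counts with agonist and 10, 2 and 2 with vehicle. The log2 ratio of Pdcd1 to Cd3e had means of -0.90 ± 0.83 with agonist and -1.91 ± 0.62 with vehicle (SD, n = 3; exact permutation p = 0.2, and 0.8 adjusted over 4 ratios). With 3 libraries against 3 this test cannot go below 0.1. The ratio of Gzmb to Cd3e differed by -0.17 (exact permutation p = 1.0). Tigit, another inhibitory receptor, had 4, 0 and 5 counts with agonist and 0, 1 and 1 with vehicle.

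Of the PD-1 ligands, Cd274 (PD-L1) was present and Pdcd1lg2 (PD-L2) was at the floor. Cd274, on chromosome 19 (29367455 to 29388095, plus strand), had 2.25, 0.952 and 1.07 CPM with agonist and 1.34, 0.932 and 1.07 CPM with vehicle (0.35 ± 0.47). Agonist replicate 1 stood apart from the other 5 libraries, and without it the log2 fold change was -0.14. Pdcd1lg2 had 0 or 1 count in every library.

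The members' highest and lowest values clustered in 2 libraries, 1 of each group. Agonist replicate 3 was the highest library for 17 of the 36 members, against 13.3% of all genes with a count, and vehicle replicate 3 was the lowest for 18, against 14.4% (20.7% of the genes tested). A tie, as between counts of 0, went to the library listed first. Vehicle replicate 3 was listed last, which lowers its share over all genes with a count. The 5 genes of the T cell receptor complex summed to 1.98, 1.56 and 3.63 CPM with agonist and 2.44, 1.57 and 1.67 CPM with vehicle. The 3 NK receptors summed to 1.0, 0.732 and 1.58 CPM with agonist and 0.593, 0.852 and 0.0995 CPM with vehicle. Across the 19 tested members, the mean log2 deviation of a library from the mean of all libraries was 0.48 in agonist replicate 3 and -0.47 in vehicle replicate 3, and between -0.18 and 0.16 in the rest. Vehicle replicate 3 was also the library with the lowest Ptprc and the lowest sum of 5 general leukocyte genes, at 217 CPM. Agonist replicate 3 was not the highest in that sum, at 429 CPM against 472 CPM in agonist replicate 2 and 475 CPM in vehicle replicate 2. Whether the leukocyte content sets the members' levels was not tested.

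**Figure D4:**
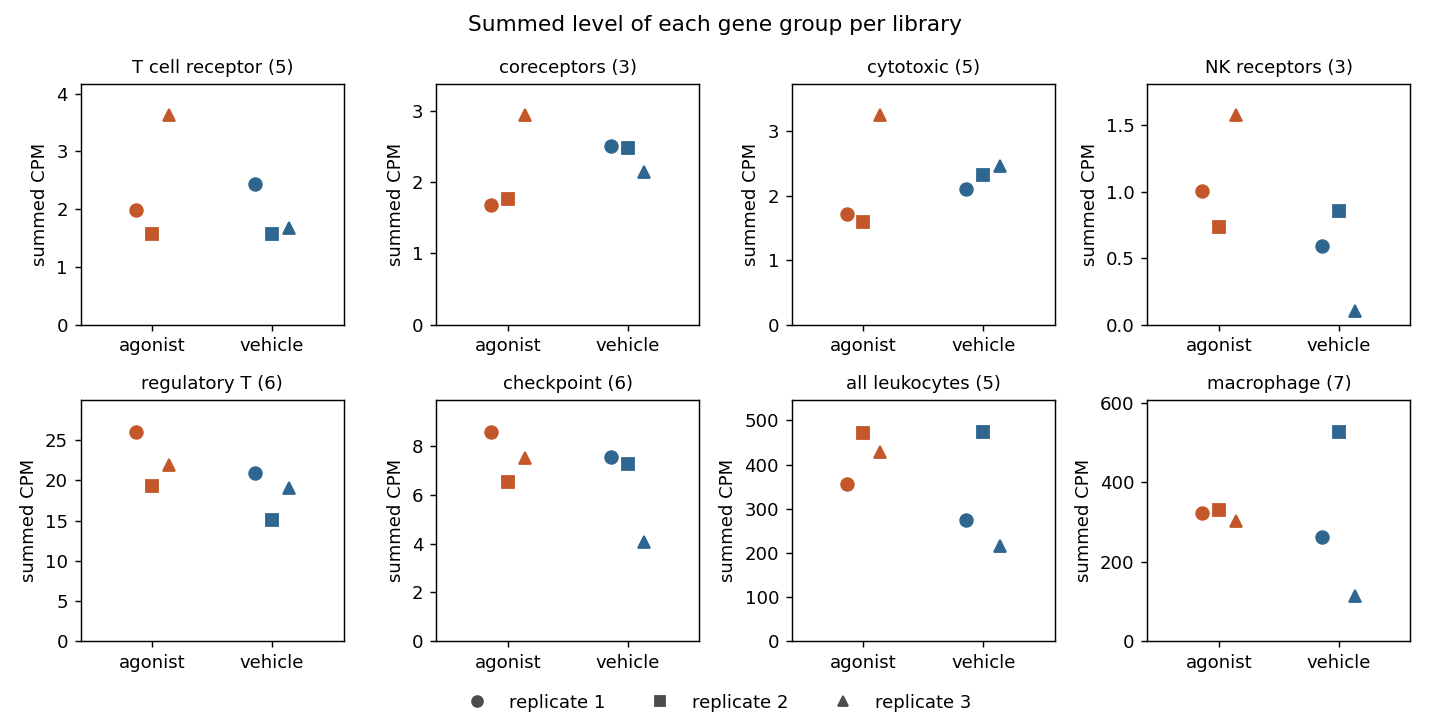
Summed CPM per library for 6 groups of members, with the number of genes in parentheses, and for 5 general leukocyte and 7 macrophage genes, with agonist libraries in orange, vehicle libraries in blue and marker shapes for replicates. Agonist replicate 3 is highest for the T cell receptor, coreceptor, cytotoxic and NK receptor sums, and vehicle replicate 3 is lowest for the NK receptor, checkpoint, leukocyte and macrophage sums.

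Among other genes of the same cells and pathways none passed the adjusted threshold in edgeR. Of 35 further T and NK cell genes 21 were tested, 14 were positive and 7 negative with a median log2 fold change of 0.26. In edgeR 0 of the 21 passed an adjusted p of 0.05. At an unadjusted p under 0.05 there was 1 of the 21, where 3.09% of all genes tested were. That gene was Bcl11b, a transcription factor of T cells and of basal mammary epithelium, with 3.55, 2.46 and 8.09 CPM with agonist and 2.30, 1.65 and 0.373 CPM with vehicle (1.70 ± 0.72, unadjusted p = 0.0459). Its groups did not overlap, with agonist higher, as for 3.02% of all genes tested, a share that does not allow for its choice by p. Klrd1, which encodes the NK receptor chain CD94, had a log2 fold change of 1.71 ± 0.74 (unadjusted p = 0.0501 and adjusted p = 0.990).

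Of 21 other checkpoint and costimulatory genes 19 were tested, 8 positive and 11 negative (median -0.05), and 0 were called at either an adjusted or an unadjusted p of 0.05. The smallest unadjusted p was that of Tnfsf9, the ligand of the costimulatory receptor 4-1BB, at -1.05 ± 0.48 (adjusted p = 0.990 by edgeR). Nt5e, which encodes the adenosine-producing enzyme CD73 (1.06 ± 0.62), Tnfrsf14 (-0.61 ± 0.45), which encodes the BTLA ligand HVEM, and Pvr (0.24 ± 0.18), which encodes a TIGIT ligand, followed. Of 10 genes induced by interferon gamma 8 were tested, 4 positive and 4 negative (median -0.07), with 0 at an adjusted or an unadjusted p of 0.05. The chemokines Cxcl9 and Cxcl10, which draw T cells through one receptor, had log2 fold changes of 1.3 ± 0.61 and -1.03 ± 0.59, in opposite directions. Gbp2, an interferon-induced GTPase, was at -0.21 ± 0.26.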

How the data were processed

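The authors deposited 1 RSEM table per library with expected counts, estimated reads per gene that need not be whole, and TPM, which RSEM derives after division by transcript length. The submitters' processing notes name cutadapt 3.5, STAR 2.7.9a, RSEM 1.3.1 and the build GRCm38. For the annotation release and the strand setting, the notes give nothing. Deposited expected counts were rounded to whole numbers. The main test was edgeR 4.0.16 (R 4.3.3) with TMM scaling, filterByExpr (minimum count 10, minimum total 15), robust quasi-likelihood F tests of group without covariates, and Benjamini-Hochberg adjustment over the 17396 genes left. Each SE was taken from the fold change and its F statistic (|log2 fold change|/√F). CPM are rounded counts scaled to the TMM-adjusted library totals, for untested members too, on which scale the floor of 3 counts was 0.0684 to 0.0813 CPM and covers counting error only. Log2 ratios between members used counts with 0.5 added. Gene positions are from GENCODE M21 (GRCm38), which held all 36 identifiers. The procedure was checked on simulated counts.

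The members and gene lists were chosen with earlier results of these data known. All members are accounted for, and from each further list the text names the 4 genes (for lists of other cell types, up to 2) with the smallest unadjusted p. Some genes that this rule names are not reported here. Ptprc, Epcam, Krt8 and Ms4a1 were named as markers, and Abca1 and Abcg1 as LXR targets. Alternatives were DESeq2 1.42.0, limma 3.58.1 (voom with quality weights, and trend on log2(TPM + 1)), other scalings, other filters, the replicate number as a block, and each library left out. Counts of groups that do not overlap were added after seeing the data.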

Additional observations from a re-analysis of the deposited data

How the results depend on the processing

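The count of members called was 0 under every alternative run. Genes called numbered 5 with DESeq2, 0 of them members, and 0 otherwise. Members with separated groups and agonist higher numbered 2 when divided by Ptprc (0.658% of all genes), 4 on the TPM scale (4.62%) and 5 to 9 with each library left out, when 4.86% to 12.5% of all genes were, against 2.83% with all libraries. The median log2 fold change of the members tested was -0.11 to 0.43 with each library left out. Deviations of samples with the same replicate number had correlations of 0.17, 0.038 and 0.063. For samples with different numbers they ran from -0.11 to 0.055. Whether the numbers stand for pairs was not tested, and the fit with the replicate block called 0 members and 0 genes. Signs turned for Cd2 with the replicate block (0.35), limma-voom (1.11) and limma-trend on TPM (0.042), for Cd3e (0.014), Cd4 (0.0091) and Zap70 (0.0047) with limma-voom, and for Tnfrsf4 with limma-trend (0.067). With each library left out, 14 of the 19 tested members turned sign. The ranges were -0.85 to 0.38 for Cd3e, -0.39 to 0.45 for Cd3d, -0.25 to 0.68 for Cd3g, -0.57 to 0.11 for Cd4, -0.94 to 0.22 for Cd8a, -0.24 to 0.43 for Lck, -0.95 to 0.0040 for Zap70, -0.85 to 1.22 for Cd2 and -0.11 to 0.52 for Nkg7. They were -0.010 to 0.43 for Ikzf2, -0.29 to 0.21 for Tnfrsf4, -0.14 to 0.57 for Cd274, -0.070 to 0.49 for Lag3 and -0.057 to 0.42 for Havcr2. Trbc2, Gzmb, Klrk1, Foxp3 and Tnfrsf18 kept their sign. The difference in log2 ratio ran from -0.96 to 0.64 for Cd8a to Cd4, from -0.57 to 0.064 for Gzmb to Cd3e, from 0.078 to 1.37 for Foxp3 to Cd3e and from 0.56 to 1.38 for Pdcd1 to Cd3e, the last 2 lowest without agonist replicate 2. The cause of these turns was not tested. Depth limits the 17 untested members, whose values rest on few reads.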

Other observations

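Igkc, Jchain and Cxcl13, named for the smallest unadjusted p in their lists (0.00889, 0.0109 and 0.0195 by edgeR), had separated groups with agonist higher. Over all genes tested 3.02% had such groups. Genes picked by a small p are likely to have them, so that share is no yardstick for these genes. The 5 plasma cell genes together overlapped, with sums of 951 to 1310 CPM with agonist and 891 to 1310 CPM with vehicle. Igkc and Jchain reached at most 11.3 and 6.08 CPM, so other genes of the list made up nearly all of that sum. The sum therefore says little about these genes. Of the 5 genes, 4 had a positive and 1 a negative log2 fold change, with a median of 0.53. Igkc, the kappa light chain constant segment of antibodies, had 2.17, 11.3 and 1.29 CPM in agonist replicates 1 to 3 and 0.114, 0.692 and 0.174 CPM in the vehicle replicates (log2 fold change 3.91 ± 1.09, SE; adjusted p = 0.990 by edgeR). Jchain, which joins secreted antibody units, had 1.68, 6.08 and 0.740 CPM with agonist and 0.319, 0.639 and 0.199 CPM with vehicle (2.87 ± 0.86; adjusted p = 0.990 by edgeR). Both were highest in agonist replicate 2, whereas agonist replicate 3 was highest for 17 of the 36 T cell, NK cell and checkpoint genes. Cxcl13, a chemokine that attracts B cells, had 0.596, 0.610 and 0.716 CPM with agonist and 0.137, 0.319 and 0.0497 CPM with vehicle (1.92 ± 0.66; adjusted p = 0.990 by edgeR). Ccl21a, a chemokine of lymphoid stroma, had a log2 fold change of 1.26 ± 0.89 with overlapping groups.

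Among other cell types no gene of the lists was called. The dendritic cell genes Batf3 and Xcr1 had log2 fold changes of -0.28 ± 0.63 and -0.29 ± 0.78, the macrophage genes Cd68 and Mrc1 0.21 ± 0.37 and 0.36 ± 0.79, and the leukocyte gene Lcp1 0.49 ± 0.26. The fibroblast genes Pdgfra and Lum were at 0.22 ± 0.40 and 0.37 ± 0.81, and the epithelial keratins Krt18 and Krt8 at -0.17 ± 0.14 and -0.25 ± 0.22. Cd27, a costimulatory receptor of lymphocytes, had 2.98 CPM in vehicle replicate 3 and 0.213 to 0.621 CPM in the other libraries.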
